A study of Mus musculus with 8 samples.

Results

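Of 122095 different DNA sequences printed on the arrays, 4494 carried exactly 2 dipyrimidine steps, each a lone run of 2 adjacent pyrimidines, with one run on the printed strand and the other on its complement. These members were chosen by sequence alone: a pyrimidine run was counted on the printed strand and on the reverse complement, both runs had to be 2 bases long, and the last 24 bases had to be those shared by nearly all sequences. The arrays were irradiated with UV or left without it ("Non-UV"), and then stained with a mouse antibody against cyclobutane pyrimidine dimers (CPD, dilution 1:400) or against 6-4 photoproducts (6-4PP, dilution 1:80) and read by fluorescence. There were 4 groups of 2 arrays, and mouse is the host of the antibodies, not the source of the DNA. The labels and files used here do not state the UV dose, the staining steps or how the second strand was made. Nothing in the labels says that the 2 arrays of a group were separate preparations, so p-values measure only the spread between these arrays.

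UV light joins neighbouring pyrimidines on the same strand. In a CPD, a ring joins the bases through the C5 and C6 carbons of both, and TT steps form it most readily. In a 6-4 photoproduct, a single bond links the 6 position of the 5′ base to the 4 position of the 3′ base, and TT and TC steps are its main sites. A photoproduct on the complement strand lies opposite purines of the printed strand. Most other sequences on the arrays hold more steps, whereas here each strand offered a single possible site, and the signal of each site alone could be read on other sequences. The comparison asks whether the antibody signal of such a sequence was the sum of its 2 lone steps.

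Pairs are written as printed-strand step, slash, complement-strand step, each read 5′ to 3′ on its own strand, so TT/TC has TT on the printed strand and TC, seen as GA in the printed sequence, on the complement. Every sequence had 25 variable bases followed by the same 35 bases (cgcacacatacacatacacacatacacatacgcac). The sequences below give the variable bases 5′ to 3′, with the 2 steps in capitals. They are shown because the results turn on the order and spacing of the steps. The first 4 hold no step or a lone step and served as references.
no step: gtatgcacacgtgtgtatgtatgca
lone TT, printed strand: tatgcatataTTgcgtatgtatgca
lone TT, complement strand: cgtatgcAAtgtatatatgtatgca
lone TC, printed strand: tatgcacacataTCgtatgtatgca
pair TT/TT, printed strand first, no base between: gtatgcataTTAAcgtatgtatgca
core ATTAAT: gtatgcaTTAAtacatatgtatgca
pair TT/TT, printed strand first, 8 bases between: atgcataTTgcgcacgtAAtgcgca
pair TT/TT, complement strand first, no base between: gtatgcacgcAATTgtatgtatgca
core TAATTA: gtatgcatAATTatatatgtatgca
pair TC/TC, printed strand first: gtatgcataTCgtGAtatgtatgca
pair TC/TC, complement strand first: gtatgcGATCatgtgtatgtatgca
pair TT/TC, printed strand first: gtatgcaTTgtacGAtatgtatgca
pair TT/TC, complement strand first: gtatgcgcGATTgtgtatgtatgca
pair TC/TT, printed strand first: gtatgcacatgTCAAtatgtatgca
pair CC/CC, complement strand first: gtatgcatgcGGCCgtatgtatgca

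Apart from the capital letters, every member alternated between purines and pyrimidines. The number of bases between the steps was therefore even, and it was 0 in 2369 members (52.7%), 2 in 1398, 4 in 642 and 6 to 10 in 85. The printed-strand step came first, that is 5′ on the printed strand, in 2249 members, and the complement-strand step came first in 2245. The 16 step pairs held 262 to 325 members each. Most members were named as part of an all-8-mer design (3840), and 4122 began with GTATGC. A total of 3292 were printed as 1 spot, so a single member rests on 1 spot per array, whereas a class median rests on many sequences.

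The values are the authors' adjusted spot intensities, in which each spot is scaled by a constant of the array over a local median. Over all sequences, the replicate differences of the CPD arrays and the 6-4PP arrays moved together where the arrays had the same number and UV condition (r = 0.707 with UV and 0.765 without, across sequences; 0.722 and 0.76 over the members). The labels do not state whether these are the same arrays stained in turn, and likeness between the antibodies is therefore not independent. Between arrays with and without UV the same number carried no such relation (r between -0.003 and 0.001 over all sequences). At 41 member spots the scanner was saturated on at least 1 array.

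Sequences without any step (550) set the floor. Their median intensity with the CPD antibody was 1617 and 1603 on the UV arrays and 1219 and 1048 on the non-UV arrays. With the 6-4PP antibody it was 1954 and 1951 with UV, and 1497 and 1246 without. A lone TT on the printed strand brought the CPD signal to 8601 ± 633 (SD, n = 2 arrays), and a lone TT on the complement brought it to 3218 ± 282. The same lone TT gave 7648 ± 305 and 3122 ± 49.5 with the 6-4PP antibody. A lone TC stood at 4553 ± 14.3 on the printed strand and 2975 ± 101 on the complement with the 6-4PP antibody, but at 1778 ± 30.9 and 1672 ± 20.7 with the CPD antibody. A step on the printed strand was thus brighter than the same step on the complement, and this strand difference runs through all values of the members.

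The lone signal also depended on the neighbouring bases. With the 6-4PP antibody, a lone printed TT between A and A (ATTA) exceeded the step-free level by 12065 ± 298, and one between G and A (GTTA) by 484 ± 12.8. With the CPD antibody the same contexts gave 10707 ± 808 and 4974 ± 401. The expected signal of a member was for this reason built from lone steps with the same neighbours: the step-free median, plus the excess of the lone printed step, plus the excess of the lone complement step, on the linear scale. There were 32 such lone references of 82 to 159 sequences each. The departure is log2 of observed over expected, taken per sequence, summarised as the median of a class, and compared between UV and non-UV arrays. It can differ from the ratio of the class's median intensities, because neighbours vary within a class.

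The CPD signal of the 16 pairs followed the place of TT. TT/TT was the brightest, with a median of 11599 and 10154 on the UV arrays against 1213 and 1040 on the non-UV arrays. The other pairs with TT on the printed strand came next by median, at 9310 ± 717 for TT/TC, 7660 ± 646 for TT/CT and 6555 ± 347 for TT/CC. With A before both steps, TT/TC gave 10214 ± 616, TT/CT 10899 ± 988 and TT/CC 9593 ± 863, so this descending order did not hold there. The pairs with TT on the complement only were lower, at 3707 ± 266 for TC/TT, 3664 ± 226 for CT/TT and 3008 ± 183 for CC/TT, and the first and second of these differed by less than the spread between arrays. Pairs without TT lay between 1673 ± 9.44 (CC/CC) and 2101 ± 51.0 (CT/CT).

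With the 6-4PP antibody, the pairs made of TT and TC alone had the highest medians. TT/TC was the brightest, at 11312 and 11572 on the UV arrays and 1507 and 1233 on the non-UV arrays. TT/TT followed with 10155 ± 81.0, then TC/TC with 7307 ± 73.2 and TC/TT with 6872 ± 95.2. All remaining pairs had medians between 2135 ± 12.6 (CC/CT) and 3417 ± 59.5 (CT/TT). These medians mix members with A and with G before a step. With A before both steps TT/CC gave 10411 ± 170.5 and TT/CT gave 11900 ± 33.0. With G before the printed TT and A before the complement step they gave 2465 ± 48.5 and 2594 ± 48.5. Without UV the medians of all 16 pairs stayed between 1118 and 1136 for CPD and between 1355 and 1384 for 6-4PP, so the pairs did not separate there.

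Sequence by sequence, UV raised the CPD signal over that of step-free sequences in 2384 of 4494 members (53.0%) and lowered it in 32, where 70.5% of all 122086 sequences tested rose and 0.471% fell (limma, adjusted p under 0.05 over all sequences). For 6-4PP, 2775 members rose (61.7%) and 32 fell, against 86.0% and 0.202% of all sequences. The shares of members that rose were thus below those of the whole array. Among lone-step sequences 31.5% rose with CPD and 40.3% with 6-4PP. By pair, the share that rose with CPD ran from 3.08% of CC/CC to 99.3% of TT/TT and of TT/CC, and with 6-4PP from 15.4% of CC/CT to 93.2% of TT/TT. These counts move with the centring: relative to the median of all sequences instead of the step-free ones, 1060 members rose and 2668 fell with CPD, and 732 rose and 3010 fell with 6-4PP. On the UV arrays the median over all spots was 2894 and 2684 with CPD and 5640 and 5616 with 6-4PP. The members had lower medians, at 2233 and 2139, and 2925 and 3017. The share of all sequences under that centring was not counted, so these falls cannot be set against the whole array.

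Over all members the sum came close to the observed signal. The median departure with UV less that without was -0.026 on the log2 scale for CPD (a ratio of 0.982) and 0.039 for 6-4PP (a ratio of 1.03). The UV arrays lay at -0.012 and -0.020 for CPD, below both non-UV arrays at 0.0071 and 0.013. For 6-4PP the UV arrays lay at 0.027 and 0.015, above the non-UV arrays at -0.030 and -0.0065. The exact two-sided permutation test over arrays gave p = 0.33 for each, the smallest value that 2 arrays against 2 allow. Observed and expected log2 intensities correlated over the 4494 members with r = 0.951 and 0.934 on the CPD UV arrays and 0.932 and 0.927 on the 6-4PP UV arrays. On the non-UV arrays r lay between -0.043 and 0.008. The members share their arrays and their lone references, and these correlations are descriptions. Other rules also came close. From the product of the lone fold changes, the departure was -0.061 (CPD) and -0.024 (6-4PP), and from the stronger step alone 0.045 and 0.11. For 6-4PP the product was thus nearer than the sum. Median absolute departures for sum, product and stronger step were 0.1473, 0.1596 and 0.1547 with CPD and 0.1695, 0.182 and 0.1844 with 6-4PP. All members together thus hardly separate the rules.

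The members in which both steps were strong separate the possible rules. In 311 members both lone steps exceeded the step-free level by at least 500 units with the CPD antibody, and there the observed signal was 0.955 times the sum. It was 0.560 times the product of the lone fold changes and 1.18 times the stronger lone step alone. For 6-4PP, 757 members met the same condition, with 1.03 times the sum, 0.692 times the product and 1.28 times the stronger step. Grouped by pair and neighbouring bases into 172 classes, 167 class medians lay within 0.25 log2 units of the sum for CPD and 161 for 6-4PP. This count was not made for the other rules, which nearly coincide with the sum in classes where a step lies near the step-free level. The expected medians of these classes spanned 1634 to 14587 for CPD and 2028 to 16737 for 6-4PP. Among the 311 and 757 members with both steps strong, the sum was thus the nearest of the 3 rules. Over the 172 classes, departures from it were small beside the range of signals. Single members strayed further. In the 311 members with CPD, the median absolute departure was 0.229 log2 units from the sum, 0.844 from the product and 0.291 from the stronger step. In the 757 with 6-4PP these were 0.263, 0.548 and 0.394. Taken this way, the sum led the stronger step by less.

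By pair, the CPD signal passed the test below the sum in 8 of 16 pairs (50.0%) and above it in 2 (12.5%). The deficit was largest for TT/TT. Its median was 11599 and 10154 on the UV arrays where the sum gave 13187 and 11600, and the excess over step-free sequences was 91.5% ± 0.108 of the summed excess. The departure of TT/TT was -0.13 ± 0.012 (SE; limma, adjusted p = 1.91e-05). Both UV arrays lay at -0.11, and the non-UV arrays lay at 0.024 and 0.017. TT/CC had a departure of -0.10 ± 0.014 (adjusted p = 0.000206), with 92.1% ± 1.38 of the summed excess. TT/TC had -0.047 ± 0.011 (adjusted p = 0.0121), which missed the threshold without any one of the 4 CPD arrays (adjusted p = 0.0592 to 0.0722). The other pairs below the sum departed less, by -0.0316 (CC/CT), -0.0354 (CT/TC), -0.0313 (TC/CC), -0.0355 (TC/CT) and -0.0318 (TT/CT). These are ratios of 0.9757 to 0.9785. Neither CC/CT (median 1729) nor TC/CC (median 1738) held a member with a summed CPD excess of at least 500 units, so both test the sum over a narrow range. The pairs above the sum, CC/TT (0.061 ± 0.021) and CT/TT (0.045 ± 0.015), carried TT on the complement only, both with adjusted p = 0.0338 (limma). With the lone references read at the member's own position along the sequence, these adjusted p-values became 0.0635 and 0.185. Leaving out any one CPD array left 2 or 3 pairs below the sum and 0 or 1 above it. TT/TT and TT/CC kept their calls in every fit that left out an array.

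The deficit of TT/TT was smaller and lost its call without the members whose steps touched. With the 0-base members left out, the CPD departure of TT/TT was -0.031 (adjusted p = 0.282), and 1 pair in place of 8 passed below the sum.

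With the 6-4PP antibody the departures lay on the other side. The signal exceeded the sum in 7 of 16 pairs (43.8%) and no pair passed below it, nor did any at an unadjusted p under 0.05 (limma). TC/TC departed most, with 7359 and 7255 on the UV arrays where the sum gave 7034 and 7004. Its departure was 0.18 ± 0.020 (adjusted p = 9.74e-05), and in the 253 members with a summed excess of at least 500 units the observed excess was 121% ± 2.12 of the sum. The departure was 0.19 and 0.14 on the UV arrays and -0.042 and 0.011 on the non-UV arrays. TT/TC exceeded its sum by 0.093 ± 0.011 (adjusted p = 0.000108), at 109% ± 1.72 of the summed excess. The other 5 pairs above the sum, among them TC/TT (0.064) and CC/TC (0.059), had departures under 0.07. On unadjusted intensity TC/TT had 0.0072 and CC/TC 0.0041, and neither passed (limma, adjusted p = 0.866 and 0.911). With class means CC/TC had 0.049 and did not pass (limma, adjusted p = 0.138). These 2 departures were 0.0365 and 0.052 without the first 6-4PP non-UV array, and 0.0513 and 0.0304 without the first 6-4PP UV array. Without the first 6-4PP non-UV array 4 pairs passed above the sum, and TC/TC and TT/TC kept theirs in every fit that left out an array.

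TT/TT as a whole did not pass with the 6-4PP antibody: 10098 and 10213 on the UV arrays against sums of 10999 and 11367, with a departure of -0.0047 ± 0.012 (adjusted p = 0.698). Classes by order and spacing, given below, lay on both sides of this value. With the 0-base members left out it was 0.082 (adjusted p = 0.00253).

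The antibodies differed from each other in 10 of 16 pairs (62.5%), and in each of these the CPD departure was the lower one. TC/TC showed the largest gap, at -0.18 ± 0.028 (CPD less 6-4PP; limma, adjusted p = 0.00044), followed by TT/TC at -0.14 ± 0.016 and TT/CC at -0.14 ± 0.019. The gap of TT/TT was -0.12 ± 0.017 (adjusted p = 0.000224). Pairs without TT had CPD medians of 1673 to 2101, close to the step-free level of 1617 and 1603. Their CPD departures were thus tested over a narrow range. For TC/TC the CPD departure was 0.0015 and the 6-4PP departure 0.18, so its gap reflects the 6-4PP side. With arrays of the same number and UV condition as a block, 10 pairs passed, 9 of them shared, and CC/CC was the one lost.

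Order and spacing were then taken over all pairs together. With CPD, none of the 9 classes of order and spacing passed the test, with 2 below the sum at an unadjusted p under 0.05 (limma). With 6-4PP, 4 of 9 classes (44.4%) passed above the sum. Members with the printed-strand step first exceeded the sum at every close spacing, by 0.098 ± 0.011 with 0 bases between, 0.084 ± 0.015 with 2 and 0.095 ± 0.015 with 4 (adjusted p = 0.000615, 0.00367 and 0.00262). Members with the complement-strand step first had -0.022 ± 0.012, -0.0021 ± 0.012 and -0.0043 ± 0.011 at the same spacings, and none of these passed. The fourth class that passed was complement first with 6 bases between (30 members, 0.10 ± 0.022). Its departure was 0.035 with the position term (adjusted p = 0.466).

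The order difference in signal was larger than that in departure in 11 of 16 pairs with CPD and in 12 with 6-4PP, and smaller in the rest. Printed-first members were brighter in 11 of 16 pairs with CPD (68.8%) and in 14 with 6-4PP (87.5%), and dimmer in 2 pairs each (12.5%). The extreme was TT/CT with 6-4PP, at 9829 and 10467 with the printed step first and 2637 and 2760 with the complement step first. This difference was 1.90 ± 0.023 on the log2 scale (limma, adjusted p = 2.22e-15). In departure from the sum the same pair differed by 0.013 ± 0.023 and did not pass. When the complement step comes first with no base between, its last purine is the base just before the printed step, and for TT/CT that base is G. The neighbour-matched sum holds this difference already. Taken as departures, 6-4PP was higher with the printed step first in 9 of 16 pairs (56.2%) and lower in 0, also at an unadjusted p under 0.05 (limma). CPD was higher in 5 (31.2%) and lower in 4 (25%). The CPD range ran from -0.27 ± 0.023 for TT/CT to 0.26 ± 0.023 for CT/TT.

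TT/TT with touching steps occurs as TTAA, printed strand first, or as AATT, complement strand first. Both are palindromes and hold a TT on each strand. The finer classes by pair, order and spacing (96) and by the 6 bases around touching steps (128 cores) were added after the data were seen. In the 75 members with TTAA, CPD gave 9476 and 8527 on the UV arrays and 1204 and 1042 on the non-UV arrays, and the observed excess was 80.8% of the summed excess. The CPD departure of TTAA was -0.28 ± 0.030 (limma, adjusted p = 8.81e-06), while its 6-4PP departure was 0.14 ± 0.031 (adjusted p = 0.00191). In the 68 members with AATT the pattern turned. Their 6-4PP signal was 9844 and 10439 with UV and 1524 and 1246 without, which was 67.9% of the summed excess in the members with a sum of at least 500 units. The 6-4PP departure of AATT was -0.45 ± 0.029 (adjusted p = 3.58e-08) and the CPD departure was -0.10 ± 0.029 (adjusted p = 0.013). The latter missed the threshold without the first CPD non-UV array (adjusted p = 0.197) or the first CPD UV array (adjusted p = 0.0507).

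The gap between the antibodies was -0.42 ± 0.043 for TTAA and 0.35 ± 0.041 for AATT (limma, adjusted p = 1.32e-05 and 2.33e-05). Blocking arrays of the same number and UV condition gave 0.00223 and 0.0039. TT/TT members with 2 or 4 bases between had CPD departures of -0.024 to -0.073 in both orders, and none passed. Without the first CPD UV array those with 4 bases between did, at -0.11 printed first and -0.15 complement first (adjusted p = 0.0293 and 0.0159, limma). With 6-4PP the printed-first ones exceeded the sum by 0.16 ± 0.036 with 2 bases and 0.22 ± 0.032 with 4 (adjusted p = 0.00212 and 8.06e-05), and the complement-first ones had -0.011 and -0.062, which did not pass. On the unadjusted intensities both printed-first values were smaller, at 0.052 and 0.026, and did not pass. Of all 96 classes, 9 passed above (9.38%) and 17 below (17.7%) with CPD, and 30 above (31.2%) and 7 below (7.29%) with 6-4PP.

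The departures varied with the outer bases of the core. ATTAAT, 24 members, had a CPD signal of 11638 and 9377 where the sum gave 15377 and 13713, a departure of -0.53 ± 0.045 (limma, adjusted p = 5.13e-08). Its 6-4PP signal was 16540 and 16640 against sums of 16677 and 16797, with a departure of -0.052 ± 0.045 (adjusted p = 0.453). The core thus stood below the sum with CPD on both UV arrays, while its 6-4PP signal differed from the sum by less than the test could call. GTTAAC, with G before each TT, had a CPD departure of -0.17 ± 0.048 (13 members, adjusted p = 0.0181). This missed the threshold without any one of the 4 CPD arrays, at adjusted p = 0.0576 to 0.171. GTTAAT, where G precedes the printed TT only, had 7255 and 6692 with 6-4PP against sums of 5297 and 5014. Its departure was 0.43 ± 0.042 with 6-4PP (adjusted p = 1.41e-07) and -0.22 ± 0.042 with CPD (adjusted p = 0.00129).

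Among the AATT cores, TAATTA had the deepest 6-4PP deficit. Its 10 members gave 10739 and 11045 against sums of 16677 and 16797, a departure of -0.67 ± 0.048 (limma, adjusted p = 1.84e-09). The CPD departure of the same core was -0.31 ± 0.048 (adjusted p = 0.000136). CAATTA followed with -0.49 ± 0.042 for 6-4PP, CAATTG with -0.36 ± 0.042 and TAATTG with -0.35 ± 0.046. All 4 AATT cores thus passed below the sum with 6-4PP, as against 12 of 128 cores in all (9.38%). For CPD the CAATTG core had 12877 and 11880 against sums of 13187 and 11600, a departure of -0.023 that did not pass. With CPD, 19 cores passed below (14.8%) and 7 above (5.47%), and 31 passed above with 6-4PP (24.2%).

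With touching steps and the printed step first, 9 of 16 pairs passed above the sum with 6-4PP and 7 did not pass (limma). Those above were the 8 pairs with TT or TC on the complement, together with TT/CC. With the complement step first, 2 passed above and 3 below. TT/TC in the form TTGA had a departure of 0.30 ± 0.026 (73 members, limma, adjusted p = 4.74e-07). Its core ATTGAT gave 14285 and 15015 against sums of 11339 and 11465, a departure of 0.38 ± 0.043. GCTAAT, which pairs CT with TT, gave 6602 and 6063 against 4951 and 4657, a departure of 0.41 ± 0.043. TC/TT in the form TCAA had 0.23 ± 0.030, whereas the reverse order, AATC, had -0.18 ± 0.029 (77 members, adjusted p = 0.000271). The 3 forms below the sum were AATT, AATC and AACT, in each of which a complement-strand TT lies directly before the printed step. AACT, of the pair CT/TT, had -0.13 ± 0.027 (66 members, limma, adjusted p = 0.00181), and it lost the call with class means (-0.087, adjusted p = 0.19). AACC, of the pair CC/TT, had -0.060 and did not pass (limma, adjusted p = 0.138), but did on unadjusted intensity (-0.12, adjusted p = 0.0144) and without the first 6-4PP UV array (-0.10, adjusted p = 0.0324).

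TC/TC showed the excess at each close spacing with the printed step first. The 6-4PP departure was 0.25 ± 0.027 for TCGA (75 members) and 0.19 ± 0.032 with 2 bases between. With 4 bases between (19 members) the signal was 9993 and 10379 with UV and 1489 and 1212 without, and the departure was 0.39 ± 0.028 (limma, adjusted p = 8.42e-08). The complement-first form GATC had 0.17 ± 0.034 (67 members, adjusted p = 0.00153), which did not pass with class means in place of medians (0.19, adjusted p = 0.0631). The core ATCGAT gave 8774 and 8482 against 7034 and 7004, a departure of 0.28 ± 0.044 (adjusted p = 2.64e-05). The CPD departures of all 6 TC/TC classes lay between -0.03 and 0.05 and did not pass (GATC passed at -0.10 on unadjusted intensity), with CPD signals of 1760 to 1948 that were near the step-free level. For CPD the sum of TC/TC is therefore tested over a narrow range.

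The largest CPD excesses over the sum came with TT on the complement at a distance from a printed CC, TC or CT that lay first. CC/TT, printed first, had 0.065 ± 0.034 with 0 bases between, 0.23 ± 0.030 with 2 and 0.41 ± 0.044 with 4 (limma, adjusted p = 0.171, 4.09e-05 and 8.81e-06). TC/TT had 0.18 ± 0.032 with 2 bases between and 0.37 ± 0.034 with 4 (limma, adjusted p = 0.000643 and 3.53e-06). CT/TT had 0.20 ± 0.030 with 2 and 0.23 ± 0.050 with 4 (limma, adjusted p = 0.000142 and 0.00232). The lone complement TT itself grew brighter with CPD as it lay farther along the sequence, by 0.052 ± 0.0027 log2 units per base (SD, n = 2 arrays, at fixed neighbours). With this position term, CC/TT had 0.15 and 0.27 at 2 and 4 bases, TC/TT had 0.25 at 4 and CT/TT had 0.12 at 2, and these still passed. TC/TT at 2 bases (0.096, adjusted p = 0.0515) and CT/TT at 4 (0.11, adjusted p = 0.143) did not (limma). The classes with 2 bases between held 42 to 50 members, and those with 4 held 18 or 19.

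The base before each step sorted the signals of TT/TT in a way that the sum largely held. With A before both steps (141 members) the CPD signal was 12287 ± 1045 and the 6-4PP signal 11847 ± 194. With G before both (34 members) they were 6451 ± 99.8 and 2545 ± 155. In the A-before-both class, which holds every AATT member, the 6-4PP excess was 84.4% of the sum. With G before the printed TT and A before the complement TT (51 members) it was 122% of the sum, at 5276 ± 50.5 observed.

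Sequences with both steps on one strand are the nearest comparison. TT/TT on opposite strands stood below sequences with both TT steps on the printed strand (86), by 0.53 ± 0.038 log2 units with CPD (10876 against 15644) and by 0.12 ± 0.038 with 6-4PP (10155 against 11242; limma, adjusted p = 2.04e-06 and 0.0188). It stood above sequences with both on the complement (95), by 1.14 ± 0.020 with CPD and 1.17 ± 0.020 with 6-4PP. TC/TC on opposite strands gave 7307 with 6-4PP, 7357 ± 513 when both steps were printed (82 sequences) and 3941 ± 39.9 when both were on the complement (97). The difference from the printed-strand class was -0.022 ± 0.047 (adjusted p = 0.648) and did not pass. Over the 32 such comparisons, opposite strands were higher in 12 (37.5%) and lower in 13 (40.6%) with CPD, and higher in 9 (28.1%) and lower in 18 (56.2%) with 6-4PP. These signals were not matched on neighbouring bases. Against neighbour-matched sums, the 1329 both-printed sequences had median 6-4PP departures of 0.0307 and 0.0155 with UV and -0.0359 and -0.0219 without, near those of all members. The 1582 both-complement sequences had -0.0103 and -0.0164 with UV, and -0.028 and 0.001 without. With CPD the both-complement sequences had -0.0177 and -0.0259 with UV and 0.0077 and 0.0041 without, near those of all members. The both-printed ones had CPD departures of 0.0204 and -0.0005 with UV and 0.0041 and 0.0142 without.

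Single members seldom departed from the sum beyond the spread. With CPD, 0 of 4494 members passed in either direction, while 313 lay above and 492 below at an unadjusted p under 0.05 (limma). By the same measure, 230 lay above and 309 below among the 3825 lone-step sequences. Among the 2911 sequences with both steps on one strand, 219 lay above and 265 below. More below than above was thus not particular to the members. With 6-4PP, 102 members passed above (2.27%) and 50 below (1.11%), where 1.55% and 0.784% of the 11230 sequences tested did. Lone-step sequences, each set against the median of its own class, passed in 29 and 28 of 3825 cases. With any one array left out, the 6-4PP counts ran from 0 to 70 above and from 0 to 111 below, the 111 without the first 6-4PP non-UV array.

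Values of single printed sequences can differ from those of their class. The TTAA sequence printed above gave 9338 and 8354 with CPD and UV, 1211 and 1034 without UV, and a summed expectation of 13420. Its 6-4PP signal was 12284 and 12707 with UV and 1522 and 1167 without. The AATT sequence was higher with CPD, at 16737 and 14096, and lower with 6-4PP, at 8384 and 8574, where its sums were 12393 and 11183. With CPD this sequence thus lay above its sum, whereas the AATT class lay below. The TT/TT sequence with 8 bases between gave 15485 and 11416 with CPD, on both sides of its sum of 12352. With 6-4PP it gave 15499 and 15190, above its sum of 12113. TC/TC in the printed-first sequence gave 1690 and 1587 with CPD and 7855 and 7024 with 6-4PP, around a 6-4PP sum of 7504. The CC/CC sequence stayed at 1642 and 1676 with CPD and 2022 and 2090 with 6-4PP. In each of these sequences both UV arrays exceeded both non-UV arrays for CPD. For 6-4PP this held in all but CC/CC, whose non-UV arrays gave 1518 and 3324.

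Some of the brightest members differed widely between arrays. The member gtatgcgtGAtaTTgtatgtatgca, of the pair TT/TC, gave 8301 and 73397 with CPD and 9044 and 81273 with 6-4PP on the UV arrays. Its sums were 10244 and 11402, near the lower array of each antibody. The member gtatgcaTTacGAcatatgtatgca gave 64940 and 16888 with CPD, against a sum of 12330. Both were printed as 1 spot, and in each of these cases the higher array's spot was at the scanner's ceiling. The brightest member with 6-4PP, gtatgcatAGcaTCatatgtatgca of the pair TC/CT, was high on both arrays, at 46461 and 61884 against a sum of 7527, and it too was 1 spot. With CPD it gave 7537 and 54112 against a sum of 2082. The dimmest member with CPD, gtatgcGACCgcacgtatgtatgca, gave 1032 and 1106 with UV, below its non-UV values of 1190 and 1223.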

How the data were processed

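Antibody staining was measured on 8 universal DNA arrays. Per the file headers, the authors deposited for each spot a scanner intensity, a normalised intensity, a local median intensity and an adjusted intensity. In every file the normalised intensity equals the scanner intensity. The adjusted intensity equals the normalised value times a constant of the array over the local median, as worked out from the values and not from a stated protocol. The labels do not state how arrays were scanned. The adjusted intensities were used. Spots of 1 sequence were averaged on the log2 scale, giving 122095 sequences from 175866 spots with a sequence, of which 122086 share the common end and were tested. No spot carried a scanner flag.

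Python 3.11.15 with numpy 2.4.6, pandas 2.3.3 and scipy 1.17.1 built the classes, and limma 3.58.1 in R 4.3.3 tested UV minus non-UV over all 8 arrays, with Benjamini-Hochberg adjustment within each family and a threshold of 0.05. Classes needed 10 members. Only 2 arrays per group limit the precision. The sum, its alternatives (product, other references, position term, unadjusted intensity, each array left out) and the tests are given with the results. On simulated data for CPD by step pair (16 pairs), 4 of 4 changes of 0.1, 4 of 4 of -0.1 and 4 of 4 of -0.2 log2 units were called, and 0 of 4 unchanged pairs. In the fit of all 122086 sequences, 5 of 100 changes of 0.5 and 57 of 100 changes of 1 were called, with 18 calls among 110106 unchanged sequences. Simulated members were built from the same sum, with noise shuffled separately for each array. The simulation held no effect of position and no deviations shared by same-numbered arrays, so its counts do not cover either.

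Members, lists and tests were chosen with earlier results of these data known. Sequences printed without the reason given beside them are, for a class, the one nearest its median UV signal, the TT/TT one with the most bases between, and for each antibody the members of highest and lowest UV signal. Cores and their sequences were chosen after their values were seen. Replicate numbers did not pair UV with non-UV arrays.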

Additional observations from a re-analysis of the deposited data

Results flagged for a closer look

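The departure from the sum differed between the antibodies, by a test of the difference itself, in 10 of the 16 step pairs. CPD less 6-4PP, on the log2 scale and with adjusted p from limma, it was -0.18 for TC/TC (0.00044), -0.14 for TT/TC (0.000129) and -0.14 for TT/CC (0.000224). It was -0.12 for TT/TT (0.000224), -0.082 for both CT/TC (0.00343) and TT/CT (0.00115), and -0.079 for TC/CT (0.00115). CC/TC had -0.079 (0.018), TC/CC -0.049 (0.018) and CC/CC -0.041 (0.0393). Pairs without TT had CPD signals close to the step-free level, so their CPD departures were tested over a narrow range. For TC/TC the CPD departure was 0.0015 and the 6-4PP departure 0.18. The touching TT/TT forms differed in opposite directions, by -0.42 for TTAA and 0.35 for AATT. These last classes were chosen after the data were seen. The part of saturation, antibody dilution (1:400 against 1:80) or the shared deviations of same-numbered arrays in these differences was not tested, apart from the block on array number given above.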

How the results depend on the processing

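Values are counts of members or pairs past the threshold, or departures on the log2 scale, and the cause of each change was not tested unless the setting itself shows it. For the UV effect on members, centring on all sequences gave 1060 higher and 2668 lower with CPD and 732 and 3010 with 6-4PP. Without centring there were 3962 and 0, and 1 lower with 6-4PP. Shares of all sequences under these other settings were not counted. Quantile normalization gave 907 higher with CPD, and 880 higher and 21 lower with 6-4PP. Lower counts were 0 and 2 without the dimmest 25 percent, 0 and 16 on unadjusted intensity, and 21 for 6-4PP on its own arrays alone. Ignoring the neighbouring bases moved the 6-4PP departure over all members to -0.018, with 4 pairs above and 9 below; the antibodies then differed in 7 pairs upward and 4 downward; and by spacing CPD had 2 classes above and 3 below, and 6-4PP 5 below. Under it the CPD departures reversed to -0.14 (CC/TT), 0.0064 (CT/TC), 0.091 (TT/TC) and 0.074 (TT/TT), and the 6-4PP ones to -0.16 (CC/TC), -0.34 (CC/TT), -0.042 (CT/CT), -0.031 (CT/TC), -0.085 (CT/TT), -0.65 (TC/CC), -0.68 (TC/CT), -1.44 (TT/CC), -1.28 (TT/CT) and 0.21 (TT/TT). The product of folds gave -0.024 over all members for 6-4PP. By pair it gave 0 above with CPD, 0 above and 4 below with 6-4PP, and differences between the antibodies in 3 pairs upward and 4 downward. By spacing it gave 5 classes below with CPD, and 0 above and 2 below with 6-4PP. It reversed CT/TT (-0.11) and TC/TT (-0.080) with CPD, and CT/TC (-0.020), TC/TC (-0.11), TC/TT (-0.26) and TT/TC (-0.32) with 6-4PP. Leaving out touching steps left 1 pair above and 1 below with CPD, turned TT/TT with 6-4PP to 0.082, and left 0 pairs dimmer with the printed step first for either antibody. The position term left 0 pairs above and 4 below with CPD, 52 members above and 26 below with 6-4PP, 10 and 4 classes below of pair, order and spacing, and 4 cores above with CPD. Class means left 2 pairs below with CPD and 5 that differed between antibodies, added 2 spacing classes below with CPD and 1 with 6-4PP, and left 11 and 3 classes of pair, order and spacing below. Unadjusted intensity left 0 pairs above and 4 below with CPD, 2 above with 6-4PP, 4 that differed, and 2 spacing classes above with 6-4PP. It turned TT/CT to 0.030 and TT/TC to 0.0017 with CPD, and TC/CT to -0.027 with 6-4PP. Order taken as departure gave 5 pairs higher and 4 lower with CPD, and 9 and 0 with 6-4PP. The arrays of 1 antibody alone gave 0 pairs dimmer in order with 6-4PP and 1 spacing class below with CPD. A trended, robust fit gave 1 pair above with CPD, 1 dimmer in order with 6-4PP and 1 spacing class below with CPD. With the label's replicate block, which does not pair UV with non-UV arrays, 5 pairs were below with CPD, and 64 members above and 28 below with 6-4PP.

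With each array left out in turn, the departure over all members ran from -0.030 to -0.022 for CPD and from 0.027 to 0.050 for 6-4PP. The UV effect gave 2024 to 2424 members higher and 19 to 46 lower with CPD, the lowest without either UV array, and 2506 to 2763 higher and 17 to 81 lower with 6-4PP, the highest without the first non-UV array. By pair, CPD had 0 to 2 above and 2 to 10 below, with 2 or 3 below without any one CPD array. 6-4PP had 4 to 9 above and 0 below, with 4 above without its first non-UV array, and 7 to 13 pairs differed between antibodies. Order gave 7 to 11 pairs brighter with CPD, 7 without its first UV array, and 1 to 2 dimmer with 6-4PP, 1 without its first non-UV array. By spacing, 0 to 1 classes were below with CPD (1 without either 6-4PP non-UV array) and 0 to 1 with 6-4PP (1 without its first non-UV array). Single members numbered 0 to 1 above with CPD, and 0 to 70 above and 0 to 111 below with 6-4PP, moving with every array. Classes of pair, order and spacing below the sum were 12 to 17 with CPD and 4 to 8 with 6-4PP, 4 without its second non-UV array. Cores numbered 0 to 8 above and 6 to 22 below with CPD, and 6 to 12 below without any one CPD array, and 22 to 32 above and 8 to 12 below with 6-4PP. Of 1580 further values of 102 single classes, 1396 kept direction and side of the threshold, 123 lost the call, 37 gained it and 24 turned. Signals near the step-free level test the sum over a narrow range only.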
